A study of Mus musculus with 12 samples.

Results

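10 genes of the endoplasmic reticulum (ER) unfolded protein response were followed in gut epithelial cells of WT and *Chd8L*+/- mice. They were taken by gene symbol as *Hspa5*, *Hsp90b1*, *Dnajb9*, *Sdf2l1*, *Pdia4*, *Herpud1*, *Xbp1*, *Ern2*, *Atf4* and *Ddit3*. All 10 of these symbols were found among the 14244 gene rows of the table, and all 10 were among the 12808 genes with a mean value of at least 10 that were tested. Poly(A) RNA was sequenced from 5 WT and 7 *Chd8L*+/- mice, 1 library per mouse, all of them male C57BL/6 littermates aged 8 weeks. *Chd8L*+/- mice carry 1 germline allele of *Chd8*, which encodes a chromatin remodeler, without exons 11 to 13, so that every cell type of these mice is heterozygous, and the labels name no treatment for either group. The epithelium was released from intestinal sections with EDTA, and no sort by cell type is described. The intestinal segment is not given in the sources used here. Values are normalized counts, that is, reads of a gene divided by the size factor that belongs to its library.

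The unfolded protein response is the program by which a cell answers misfolded protein in the ER. It is sensed in the ER membrane by IRE1, PERK and ATF6. IRE1 splices the *Xbp1* mRNA into the form that encodes an active transcription factor, PERK slows translation while favouring that of ATF4, and ATF6 is cut in the Golgi to release a transcription factor. Their target genes encode chaperones, disulfide isomerases and parts of the degradation machinery, and in the gut this pathway is best known from secretory cells, such as goblet and Paneth cells, which make large amounts of mucin and antimicrobial protein.

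The DNA letters through which ATF6, XBP1 and ATF4 are known to act are shown here for the genes whose promoter window holds them, since this shared control is what the chaperone genes of the pathway are best known for. Windows of RefSeq, from 250 bases before to 50 after the start of each gene (build GRCm38.p6), were given for 9 of the 10 genes, *Ern2* being the other. Both strands were searched for the ER stress element ERSE, which is CCAAT and CCACG with 9 bases between them, for ERSE-II, which is ATTGG and CCACG with 1 base between them, for the unfolded protein response element UPRE (TGACGTGG) and for the site of ATF4 with C/EBP partners, CARE (TGATGNAA). The first 3 of these motifs share CCACG or its complement CGTGG, and no site shown overlapped another. ERSE was in the windows of *Hspa5* (once) and *Hsp90b1* (2 sites), against 0.119% of all 32851 windows. ERSE-II was in that of *Herpud1*, against 0.0365% of windows, and CARE was also in that of *Herpud1*, against 3.97%. UPRE was in 0.676% of windows and in none of the 9. Each site is printed along the strand of its gene with 5 bases on either side, and capitals mark the motif from its first to its last letter.
Hspa5 ERSE, chr2:34772020-34772048, plus strand: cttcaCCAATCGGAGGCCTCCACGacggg
Hsp90b1 ERSE, distal, chr10:86705633-86705661, minus strand: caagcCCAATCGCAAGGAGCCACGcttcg
Hsp90b1 ERSE, proximal, complement form, chr10:86705528-86705556, minus strand: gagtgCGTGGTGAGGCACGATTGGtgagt
Herpud1 ERSE-II, chr8:94386372-94386392, plus strand: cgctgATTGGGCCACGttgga
Herpud1 CARE, complement form, chr8:94386312-94386329, plus strand: gcgggTTGCATCAgcccg
The *Hspa5* site begins 65 bases before the RefSeq start and lies within an exon of a longer GENCODE transcript of the gene, whereas the other 4 sites lie outside the annotated exons of the 10 genes. The *Hsp90b1* sites begin 212 and 107 bases before the start, the *Herpud1* ERSE-II 52 and its CARE 112 bases. A match is a description of the letters and not evidence of binding. The motifs are themselves known from genes of this pathway, so the shares of windows give scale only and are no test of enrichment.

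Facts of the libraries that bear on every value are given first. Between 15691662 and 20761315 reads per library were recovered from the normalized counts, and the 10 genes had between 169 (*Ern2*) and 16173 (*Hspa5*) reads in a library. WT replicate 2 stood apart from the other WT libraries. On the first principal component of all genes tested, which took 39.7% of the variance, WT replicates 1, 3, 4 and 5 lay between -67.5 and -26.2, WT replicate 2 lay at 41.0, and the 7 *Chd8L*+/- libraries lay between 0.26 and 42.7. Each of the 10 genes is therefore described with and without WT replicate 2, and the library was not removed from the main comparison. It was singled out from these same data, so the fits without it are no independent test of the genotype difference. COX1, a mitochondrial gene, took from 2.80% to 4.77% of the reads in the other 4 WT libraries and 9.26% in WT replicate 2, and 3.08% and 4.25% in *Chd8L*+/- replicates 1 and 2 against 6.44% to 12.3% in replicates 3 to 7. *Dnajb9* values lay in the same sets of libraries, with the 6 libraries of higher COX1 share below the other 6, and the part of that share in the values of the 10 genes was not tested. The count of *Chd8* covers the whole gene and does not separate the deleted exons, so it is no check of the genotype labels. *Chd8* was at 953 ± 85.5 in WT (SD, n = 5) and at 1297 ± 123 in *Chd8L*+/- libraries (SD, n = 7), with all 7 *Chd8L*+/- libraries above all 5 WT libraries and a limma adjusted p of 0.121, or 0.00676 without WT replicate 2. *Epcam*, which encodes an epithelial adhesion protein, was between 27667 and 52975 normalized counts in every library, and the lowest values of *Cdh1*, *Krt8* and *Vil1* were 12109, 37024 and 26439, so these epithelial markers were high in all 12 libraries.

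The 4 genes of the group that were lower in *Chd8L*+/- libraries were *Ddit3*, *Herpud1*, *Dnajb9* and *Atf4*, and the 6 that were higher were *Ern2*, *Pdia4*, *Hsp90b1*, *Hspa5*, *Sdf2l1* and *Xbp1*. None of the 10 passed an adjusted p of 0.05 in limma with all 12 libraries (0.0234% of all genes did), while 6 of the 10 had an unadjusted p of 0.05 or less (24.3% of all genes did). edgeR likewise called none of the 10 after adjustment (5 of all 12808 genes were called). It gave 6 of the 10 an unadjusted p of 0.05 or less (2865 of all 12808 genes had this). DESeq2 called 1, *Ddit3* (6.44% of the genes with an adjusted p were called). Without WT replicate 2, limma called 4 of the 10 lower (13.6% of all genes) and 2 of the 10 higher (14.0% of all genes). In no other case of 1 library left out was any of the 10 called. The 6 called without WT replicate 2 were *Ddit3*, *Dnajb9*, *Atf4* and *Herpud1*, which fell, and *Pdia4* and *Hsp90b1*, which rose. Of these 6 only *Ddit3*, *Dnajb9* and *Pdia4* were also called when the number in the library name was added as a block, again without WT replicate 2. Of all 12807 genes 2258 were called in that fit. There the limma adjusted p was 0.0521 for *Hsp90b1*, 0.0568 for *Atf4* and 0.0849 for *Herpud1*. With all 12 libraries this block called none of the 10 and no other gene. *Chd8L*+/- replicates 4 and 6 share a number that no WT library has, so they add nothing to the genotype estimate under this block. With all 12 libraries no gene of the 10 had groups that did not overlap (0.515% of all genes did), and without WT replicate 2 only *Dnajb9* did (14.4% of all genes). In bulk RNA a change in the number of cells of a type and a change in RNA per cell cannot be told apart.

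**Figure D1:**
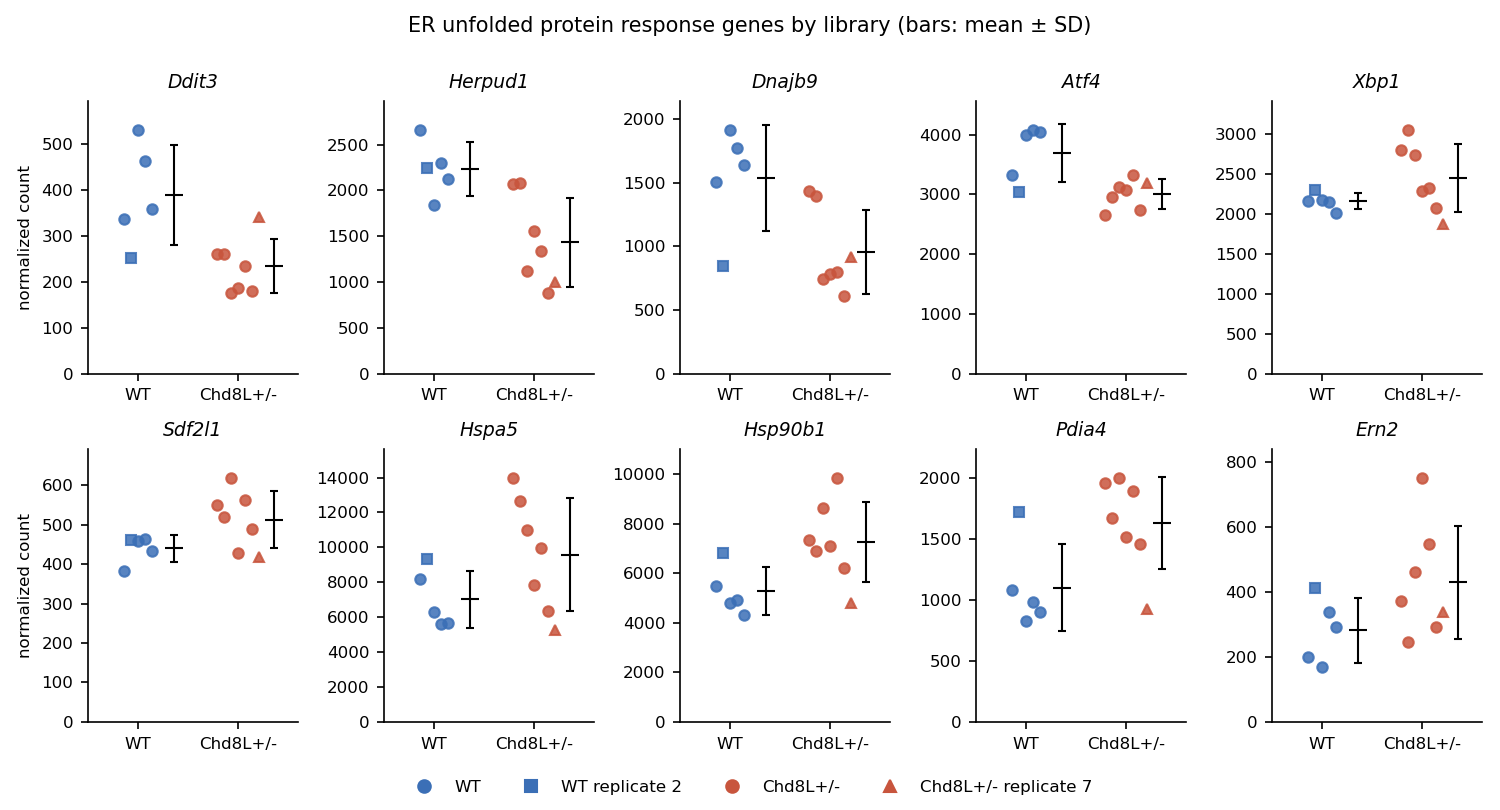
Normalized counts of the 10 genes in each library (vertical axis, starting at 0), with WT in blue and *Chd8L*+/- in red. Bars give the mean and SD of each group (n = 5 and n = 7). WT replicate 2 (square) lies among the *Chd8L*+/- libraries for *Dnajb9* and *Pdia4*, and *Chd8L*+/- replicate 7 (triangle) lies among the WT libraries for *Pdia4* and *Hsp90b1*.

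Levels of the 10 genes were compared with each other after division by the exonic length of the gene in kilobases (GENCODE M21). In WT the order from the highest was *Hspa5* (1658 ± 391 normalized counts per kilobase, SD, n = 5), *Atf4* (1565 ± 205), *Hsp90b1* (1307 ± 239), *Herpud1* (957 ± 127), *Xbp1* (664 ± 31.5), *Dnajb9* (602 ± 162), *Pdia4* (458 ± 149), *Sdf2l1* (397 ± 30.7), *Ddit3* (227 ± 63.8) and *Ern2* (95.1 ± 33.5). The means of neighbours in this order lay further apart than their SDs added together only between *Herpud1* and *Xbp1*, between *Sdf2l1* and *Ddit3*, and between *Ddit3* and *Ern2*. In *Chd8L*+/- libraries *Hspa5* (2265 ± 764, SD, n = 7) again came first, followed by *Hsp90b1* (1800 ± 402), *Atf4* (1276 ± 104), *Xbp1* (753 ± 130), *Pdia4* (680 ± 157), *Herpud1* (614 ± 210), *Sdf2l1* (462 ± 65.3), *Dnajb9* (375 ± 129), *Ern2* (145 ± 58.7) and *Ddit3* (137 ± 34.9). Here neighbours were separated by more than their added SDs between *Hsp90b1* and *Atf4*, between *Atf4* and *Xbp1*, and between *Dnajb9* and *Ern2*. *Herpud1* and *Dnajb9* stood above *Pdia4* in WT and below it in *Chd8L*+/- libraries.

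Of the sensors, *Ern2* (chr7:122169893-122186207, minus strand; positions in GRCm38, the assembly named mm10) encodes IRE1β, the form of IRE1 found in mucus-producing epithelium. Its normalized counts in WT replicates 1 to 5 were 198, 412, 170.4, 337 and 291, and in *Chd8L*+/- libraries the lowest was 244, the median 373 and the highest 749.7 (replicate 4). The groups overlapped, and 3 of the 7 *Chd8L*+/- libraries lay above all WT libraries. The mean was 282 ± 99.4 in WT (SD, n = 5) and 429.5 ± 174 in *Chd8L*+/- libraries (SD, n = 7), a log2 fold change of 0.59 (SE 0.28) with a limma adjusted p of 0.216 and a two-sided exact permutation p of 0.0960. *Ern2* was highest of the WT libraries in replicate 2, and without it the log2 fold change was 0.74 with a limma adjusted p of 0.0682. *Ern2* had the widest spread of the 10 genes among *Chd8L*+/- libraries, where the highest value was 3.07 times the lowest.

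*Ern2* is known as a gene of goblet cells. Of 15 goblet cell markers tested, 13 were lower in *Chd8L*+/- libraries and 2 higher, with a median log2 fold change of -0.28, the direction opposite to that of *Ern2*. Their summed normalized counts ranged from 103505 to 251567 in WT and from 97186 to 183606 in *Chd8L*+/- libraries, so the groups overlapped, and none of the 15 was called by limma with 12 libraries. *Muc2*, the main mucin gene of goblet cells, was not found by symbol among the gene rows and could not be analysed here. The part of goblet cells in the *Ern2* values was not tested.

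*Xbp1* (chr11:5520659-5525893, plus strand) encodes the transcription factor that IRE1 activates by splicing, and a count per gene does not separate the spliced from the unspliced mRNA. It had 2159, 2298, 2168, 2147 and 2010.0 normalized counts in WT replicates 1 to 5, and from 1874 (replicate 7) through a median of 2321 to 3046 (replicate 2) in *Chd8L*+/- libraries. The WT libraries lay close together, while 4 *Chd8L*+/- libraries lay above all of them and 1 below. The mean was 2156 ± 102 in WT (SD, n = 5) and 2446 ± 423 in *Chd8L*+/- libraries (SD, n = 7). *Xbp1* had a log2 fold change of 0.16 (SE 0.13) with a limma adjusted p of 0.430 and an exact permutation p of 0.191, and of 0.19 with a limma adjusted p of 0.316 when WT replicate 2 was left out. Over 27 alternative settings the adjusted p of *Xbp1* lay between 0.143 and 0.601, so the threshold was passed in none of them.

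The PERK branch is represented by *Atf4* (chr15:80255184-80257541, plus strand), a transcription factor whose translation rises when the initiation factor eIF2α is phosphorylated, and by *Ddit3*, its target, which encodes the proapoptotic factor CHOP. *Atf4* had 3316, 3032, 3985, 4077 and 4041 normalized counts in WT replicates 1 to 5, against a lowest value of 2649, a median of 3080.3 and a highest of 3329 in *Chd8L*+/- libraries. Every *Chd8L*+/- library was under the median of WT, and 3 of them were under every WT library. The mean was 3690.3 ± 483 in WT (SD, n = 5) and 3008 ± 246 in *Chd8L*+/- libraries (SD, n = 7), which is 18.5% lower. The log2 fold change was -0.29 (SE 0.11) with a limma adjusted p of 0.153 and an exact permutation p of 0.0152. *Atf4* was lowest of the WT libraries in replicate 2, and without it the fold change was -0.36 with a limma adjusted p of 0.0247. The size of the *Atf4* difference depended on scaling, since after quantile normalization of all libraries it was -0.12.

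*Ddit3* (chr10:127290774-127296288, plus strand) had 338, 253, 531, 463 and 359.9 normalized counts in WT replicates 1 to 5, against a lowest value of 176, a median of 236 and a highest of 342 (replicate 7) in *Chd8L*+/- libraries. The median of WT was above each of the 7 *Chd8L*+/- libraries, 4 of which lay below every WT library, and WT replicate 2 lay within the *Chd8L*+/- range. The mean was 389 ± 109 in WT (SD, n = 5) and 235 ± 59.8 in *Chd8L*+/- libraries (SD, n = 7), which is 39.6% lower. On the log2 scale the fold change was -0.72 (SE 0.21), with a limma adjusted p of 0.121, an exact permutation p of 0.0164 and a DESeq2 adjusted p of 0.0301. Leaving out WT replicate 2 gave -0.86 with a limma adjusted p of 0.00871. *Ddit3* shares 186 exonic bases with other annotated genes, summed over these genes. Among them are *Mars* on the opposite strand and a second entry also named *Ddit3* on the same strand, which accounts for 105 bases. Whether strand was used in counting is not given in the sources used here, so reads on these bases cannot be assigned to 1 gene.

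Among the chaperones, *Hspa5* (chr2:34771970-34777547, plus strand) encodes BiP, the main HSP70 of the ER lumen. Its normalized counts in WT replicates 1 to 5 were 8179, 9317, 6283, 5611 and 5678, and in *Chd8L*+/- libraries the lowest was 5257 (replicate 7), the median 9972 and the highest 13968 (replicate 1). In *Chd8L*+/- libraries 4 of 7 values lay above all WT libraries and 1 lay below all of them, so *Chd8L*+/- mice spanned the whole WT range. The mean was 7014 ± 1654 in WT (SD, n = 5) and 9578 ± 3233 in *Chd8L*+/- libraries (SD, n = 7). The log2 fold change of 0.40 (SE 0.25) had a limma adjusted p of 0.318 and an exact permutation p of 0.160. Leaving out WT replicate 2 gave 0.51 with a limma adjusted p of 0.146, and *Hspa5* was called by limma only with *Chd8L*+/- replicate 7 left out as well (log2 fold change 0.64, adjusted p 0.0448).

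*Hsp90b1* (chr10:86690209-86705509, minus strand) encodes GRP94, the HSP90 of the ER. It had 5476, 6829.9, 4795, 4922 and 4329.7 normalized counts in WT replicates 1 to 5, and from 4807 (replicate 7) through a median of 7079.9 to 9836 (replicate 5) in *Chd8L*+/- libraries. WT replicate 2 was the highest WT library and *Chd8L*+/- replicate 7 the lowest of its group, and 5 of 7 *Chd8L*+/- libraries lay above all WT libraries. The mean was 5271 ± 963 in WT (SD, n = 5) and 7256 ± 1621 in *Chd8L*+/- libraries (SD, n = 7), which is 37.7% higher. The log2 fold change was 0.45 (SE 0.18) with a limma adjusted p of 0.154 and an exact permutation p of 0.0316. Without WT replicate 2 it was 0.55 with a limma adjusted p of 0.0329. Annotated genes overlap 632 of the exonic bases of *Hsp90b1*, and reads there carry the same doubt as for *Ddit3*.

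*Dnajb9* (chr12:44205559-44210326, minus strand) encodes ERdj4, a co-chaperone of BiP that holds IRE1 in its inactive form and is itself a target of XBP1. It had 1504, 846, 1914, 1772 and 1640.1 normalized counts in WT replicates 1 to 5. In *Chd8L*+/- replicates 1 and 2 it had 1438.0 and 1398 normalized counts, and in the other 5 it was between 614 and 913. WT replicate 2 lay within the range of these 5, whereas the other 4 WT libraries lay above all 7 *Chd8L*+/- libraries. The mean was 1535 ± 414 in WT (SD, n = 5) and 955 ± 328 in *Chd8L*+/- libraries (SD, n = 7), which is 37.8% lower. The log2 fold change was -0.70 (SE 0.24) with a limma adjusted p of 0.130 and an exact permutation p of 0.0227. Without WT replicate 2 the WT mean was 1708 ± 176 (SD, n = 4) and the log2 fold change -0.90 with a limma adjusted p of 0.0109.

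*Sdf2l1* (chr16:17130138-17132383, minus strand) encodes a partner of the ER DnaJ proteins in the BiP cycle. It had 383, 461, 458, 464 and 433 normalized counts in WT replicates 1 to 5, and from 419 (replicate 7) through a median of 519 to 618 (replicate 3) in *Chd8L*+/- libraries. No *Chd8L*+/- library was below the lowest WT library, and 5 of 7 were above the highest. The mean was 439.7 ± 34.0 in WT (SD, n = 5) and 512 ± 72.3 in *Chd8L*+/- libraries (SD, n = 7). Its log2 fold change was 0.21 (SE 0.12) with a limma adjusted p of 0.279 and an exact permutation p of 0.0644. When WT replicate 2 was left out it was 0.23 with a limma adjusted p of 0.191, and the adjusted p stayed at 0.105 or above over the 27 alternatives.

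*Pdia4* (chr6:47796141-47813430, minus strand) encodes ERp72, a protein disulfide isomerase. It had 1078, 1716, 824, 979.9 and 897 normalized counts in WT replicates 1 to 5. In *Chd8L*+/- libraries the lowest was 927 (replicate 7), the median 1669.8 and the highest 1996 (replicate 3), and the 6 libraries other than replicate 7 were at 1458 or above. WT replicate 2 thus lay among the *Chd8L*+/- libraries and *Chd8L*+/- replicate 7 among the WT libraries. The mean was 1099 ± 358 in WT (SD, n = 5) and 1630.3 ± 376 in *Chd8L*+/- libraries (SD, n = 7), which is 48.4% higher. *Pdia4* had a log2 fold change of 0.58 (SE 0.21) with a limma adjusted p of 0.136 and an exact permutation p of 0.0429, and without WT replicate 2 it was 0.75 with a limma adjusted p of 0.0120.

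*Herpud1* (chr8:94386438-94395377, plus strand) encodes HERP, an ER membrane protein of the degradation complex that takes misfolded protein out of the ER. It had 2659, 2240.4, 1844, 2304 and 2120.3 normalized counts in WT replicates 1 to 5, against a lowest value of 878, a median of 1337 and a highest of 2076 in *Chd8L*+/- libraries. As for *Ddit3*, no *Chd8L*+/- library reached the median of WT, and 5 of them were below every WT library, while *Chd8L*+/- replicates 1 and 2 lay inside the WT range. The mean was 2234 ± 296 in WT (SD, n = 5) and 1432 ± 489 in *Chd8L*+/- libraries (SD, n = 7), which is 35.9% lower. This is a log2 fold change of -0.70 (SE 0.21) with a limma adjusted p of 0.121 and an exact permutation p of 0.0177. WT replicate 2 was the median WT library for *Herpud1*, so the log2 fold change without it was again -0.70, now with a limma adjusted p of 0.0393. This call of *Herpud1* was lost in edgeR without WT replicate 2 (adjusted p 0.0627) and in limma when *Chd8L*+/- replicate 7 was left out as well (adjusted p 0.0602). *Hspa5* and *Hsp90b1*, with ERSE in their windows, and *Herpud1*, with ERSE-II and CARE, had fold changes of opposite sign. None of these genes was called by limma with all 12 libraries, and a relation between motif and direction was not tested.

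**Figure D2:**
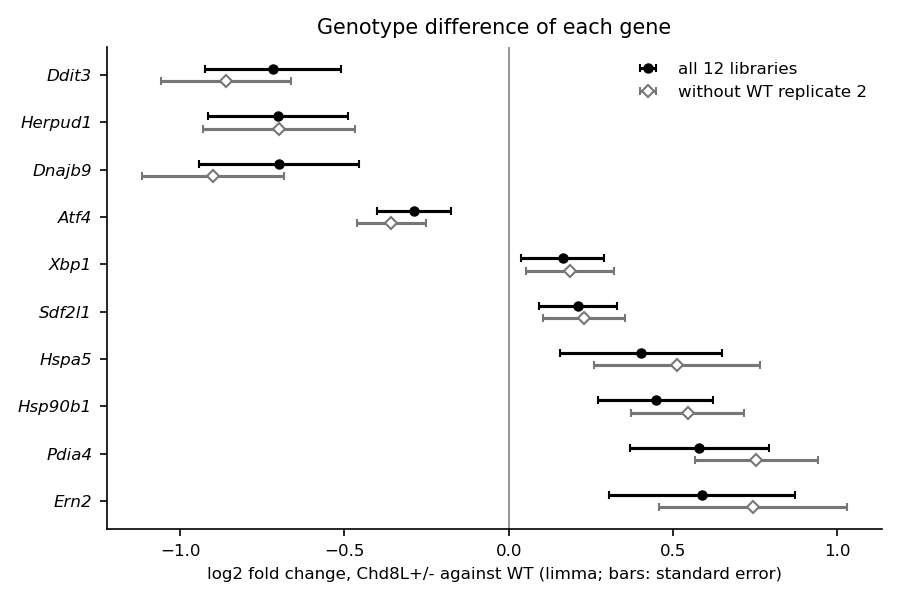
Log2 fold change of each of the 10 genes in *Chd8L*+/- against WT libraries with its standard error (limma), for all 12 libraries (filled) and without WT replicate 2 (open). *Ddit3*, *Herpud1*, *Dnajb9* and *Atf4* lie below 0 and the other 6 above 0 in both fits, from -0.72 for *Ddit3* to 0.59 for *Ern2* with all 12 libraries.

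The smallest p that the exact permutation test can give is 0.00126 over the 792 splits of 12 libraries and 0.00303 over the 330 splits without WT replicate 2. Without that library the exact permutation p was 0.00909 for *Ddit3*, 0.0121 for both *Dnajb9* and *Pdia4*, 0.00606 for *Atf4*, 0.0303 for *Herpud1* and 0.0212 for *Hsp90b1*. For *Ern2* it was 0.0485, for *Sdf2l1* 0.0788, for *Hspa5* 0.106 and for *Xbp1* 0.197.

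**Figure D3:**
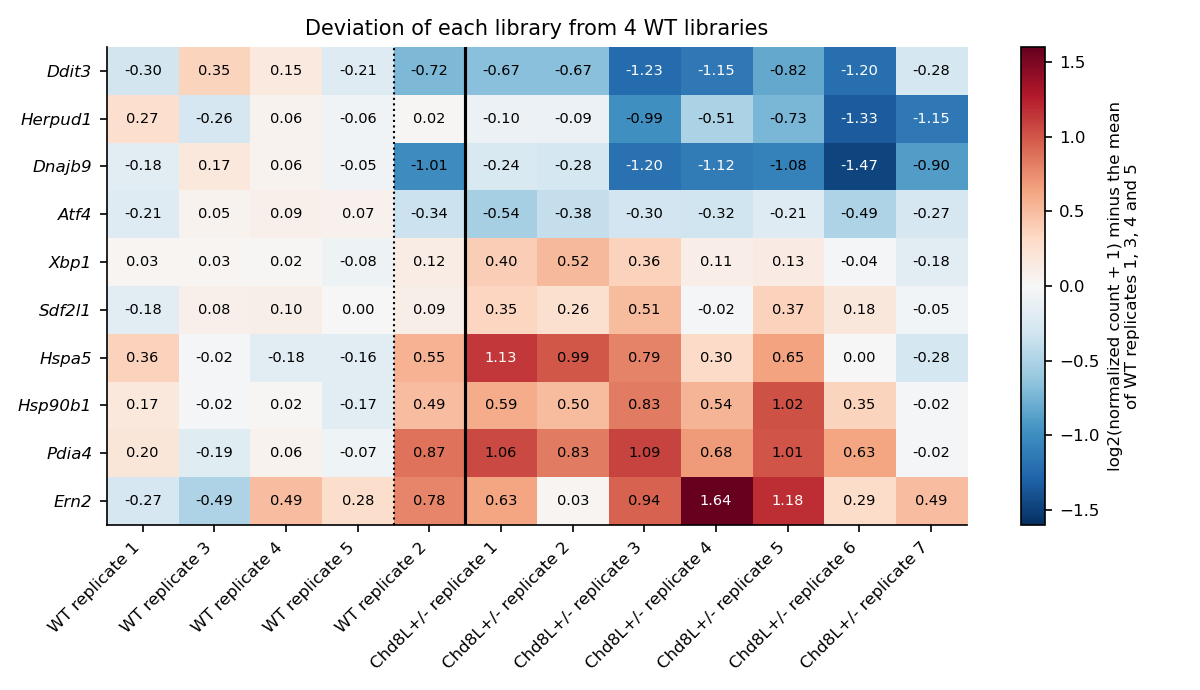
Difference of each library (columns) from the mean of WT replicates 1, 3, 4 and 5 on the log2(normalized count + 1) scale for the 10 genes (rows), red above and blue below. WT replicate 2 has *Ddit3*, *Dnajb9* and *Atf4* below and *Hspa5*, *Hsp90b1*, *Pdia4* and *Ern2* above that mean, and *Chd8L*+/- replicate 7 has *Herpud1* and *Dnajb9* below it with *Pdia4* and *Hsp90b1* near 0.

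*Chd8L*+/- mice varied among themselves, and the 10 genes did not vary alike. Coefficients of variation over the 7 *Chd8L*+/- libraries were lowest for *Atf4* (8.16%) and *Sdf2l1* (14.1%) and highest for *Ern2* (40.5%), *Dnajb9* (34.4%), *Herpud1* (34.2%) and *Hspa5* (33.8%). Replicates 1 and 2 had the 2 highest values of *Hspa5*, *Xbp1*, *Herpud1* and *Dnajb9* of the *Chd8L*+/- group, and replicate 7 had the lowest values of *Hspa5*, *Xbp1*, *Hsp90b1*, *Pdia4* and *Sdf2l1*. Of the 45 pairs of genes tested over these 7 libraries, *Hspa5* and *Xbp1* had the highest Pearson correlation, with r = 0.95 (exact permutation p = 0.00198) and Spearman rho = 0.96 (exact permutation p = 0.00278). The adjusted p over the 45 pairs was 0.0737 for r and 0.125 for rho, so no pair passed 0.05, and r was 0.85 without replicates 6 and 7. The correlation of *Hsp90b1* with *Pdia4* was r = 0.89 and rho = 0.86 (adjusted exact permutation p = 0.0737 and 0.214), with r = 0.83 when replicates 5 and 7 were left out. *Herpud1* and *Dnajb9* had r = 0.85 and rho = 0.71 (adjusted exact permutation p = 0.177 and 0.396), and with replicates 1 and 2 left out r was 0.37, so this relation rested on those libraries. *Dnajb9* and *Pdia4* had log2 fold changes of opposite sign, neither of them called by limma in the main comparison. Within the *Chd8L*+/- group they had r = 0.17 and rho = 0.14 (adjusted exact permutation p = 0.906 and 0.978), and r was -0.44 without replicates 1 and 2. All genes of a library share its size factor.

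**Figure D4:**
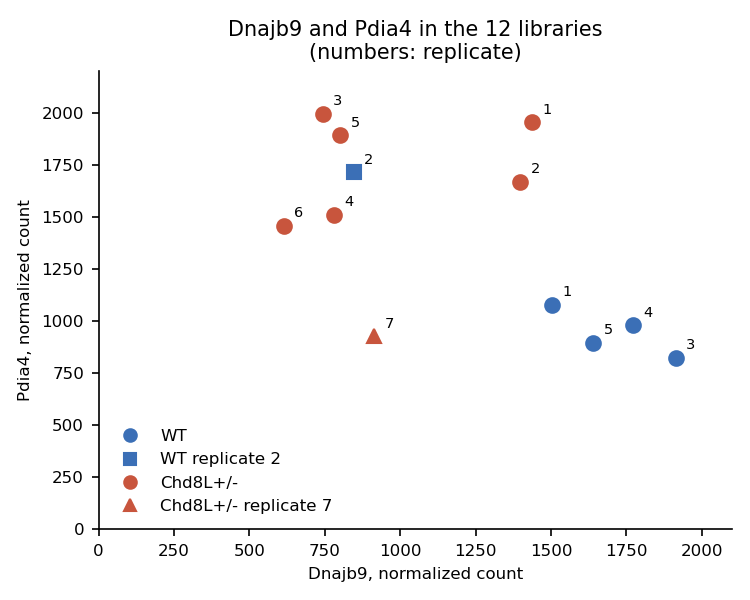
Normalized counts of *Dnajb9* (horizontal axis) and *Pdia4* (vertical axis) in the 12 libraries, both axes from 0, with WT in blue and *Chd8L*+/- in red and numbers giving the replicate. WT replicates 1, 3, 4 and 5 lie at high *Dnajb9* and low *Pdia4*, WT replicate 2 (846 and 1716) lies beside *Chd8L*+/- replicates 3 to 6, *Chd8L*+/- replicates 1 and 2 are high for both genes, and *Chd8L*+/- replicate 7 (913 and 927) is low for both.

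Other genes of the pathway were counted from 6 lists ordered by role, with 100 tested genes beside 9 of the 10 genes above, *Xbp1* being in no list. Of these 100 genes, 47 were lower and 53 higher, 11 and 12 of them had an unadjusted limma p of 0.05 or less, and none was called with 12 libraries. Without WT replicate 2, limma called 12 lower and 13 higher, which is close to the shares over all genes given above. For comparison, the median log2 fold change over all genes tested was 0.01.

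The list of sensors and of the proteases and factors that act with them had a median of 0.18 over 10 genes, of which 8 were higher (median 0.19 without WT replicate 2). *Mbtps1*, the site-1 protease that cuts ATF6, had 1014 ± 140.3 normalized counts in WT (SD, n = 5) and 1323 ± 147 in *Chd8L*+/- libraries (SD, n = 7), a log2 fold change of 0.39 with a limma adjusted p of 0.121 that became 0.00767 without WT replicate 2. The ubiquitous IRE1, *Ern1*, had a log2 fold change of 0.34 (SE 0.14, limma adjusted p 0.159), beside 0.59 for its gut paralog *Ern2*. The genes of the other sensors, *Eif2ak3* for PERK and *Atf6*, had log2 fold changes of 0.18 (SE 0.19) and 0.08 (SE 0.15). *Creb3l3*, a factor of liver and gut that is cut like ATF6, was at -0.66 (SE 0.30, limma adjusted p 0.192, or 0.0314 without WT replicate 2), and *Creb3l2* at -0.51 (SE 0.31).

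The list of the integrated stress response and ATF4 targets, which holds *Atf4* and *Ddit3*, had 12 lower and 13 higher genes of 25 and a median of 0.05, or 0.08 without WT replicate 2. *Ddit4*, an inhibitor of mTORC1, was at 693 ± 88.2 normalized counts in WT (SD, n = 5) and 399.7 ± 101 in *Chd8L*+/- libraries (SD, n = 7). Its log2 fold change was -0.83 with a limma adjusted p of 0.121. Its highest *Chd8L*+/- library (525) lay below its lowest WT library (636), and 0.515% of all genes had groups that did not overlap. *Ddit4* was named for its small p. *Trib3*, a pseudokinase induced by CHOP, was at -0.87 (SE 0.29, limma adjusted p 0.125), beside -0.72 for *Ddit3*. *Aldh18a1*, which makes a precursor of proline, and *Pck2*, the mitochondrial PEP carboxykinase, were at 0.52 (SE 0.23) and 0.65 (SE 0.29). In the fit without WT replicate 2 limma called 6 genes of this list lower, *Atf4*, *Ddit3*, *Ddit4* and *Trib3* among them, and 4 higher, including *Aldh18a1* and *Pck2*, beside 13.6% and 14.0% of all genes in that fit.

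In the list of ER chaperones and co-chaperones, 15 of 17 genes were higher, with a median of 0.21, and *Dnajb9* and *Sdf2* were the 2 that were lower. *Sdf2*, the paralog of *Sdf2l1*, was at 986 ± 307 normalized counts in WT (SD, n = 5) and 601 ± 154 in *Chd8L*+/- libraries (SD, n = 7). Its log2 fold change was -0.68 (SE 0.22, limma adjusted p 0.125), against 0.21 for *Sdf2l1*, and its adjusted p was 0.00703 without WT replicate 2. *Uggt1*, which returns misfolded glycoproteins to the calnexin cycle, was at 0.60 (SE 0.18, limma adjusted p 0.121), and *Canx*, calnexin itself, at 0.46 (SE 0.18, limma adjusted p 0.148), and without WT replicate 2 their adjusted p was 0.00537 and 0.0417. The summed normalized counts of the 17 genes ranged from 37790 to 48413 in WT and from 36477 to 62936 in *Chd8L*+/- libraries, with *Chd8L*+/- replicate 7 at the lower end. When WT replicate 2 was left out the median was 0.28 and limma called 2 of the 17 lower and 4 higher, beside 13.6% and 14.0% of all genes.

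Of the disulfide and proline isomerases and oxidases, which include *Pdia4*, 9 of 17 genes were higher and 8 lower, with a median of 0.11, or 0.12 without WT replicate 2. The isomerases *Pdia6* and *Pdia3* were at 0.63 (SE 0.20, limma adjusted p 0.122) and 0.32 (SE 0.14, limma adjusted p 0.181), in the direction of *Pdia4*. The oxidases *Ero1l* and *Ero1lb*, which pass electrons from the isomerases to oxygen, were in the opposite direction. *Pdia6*, *Pdia3* and these oxidases were named for their smallest p, and the other isomerases of the list went in both directions. *Ero1l* was at 1902 ± 864 normalized counts in WT (SD, n = 5) and 1007 ± 112 in *Chd8L*+/- libraries (SD, n = 7), with a log2 fold change of -0.80 and a limma adjusted p of 0.121, and *Ero1lb* was at -0.81 (SE 0.29, limma adjusted p 0.135). When WT replicate 2 was left out, the adjusted p was 0.00491 for *Ero1l*, 0.00664 for *Ero1lb*, 0.00888 for *Pdia6* and 0.0710 for *Pdia3*.

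Of the genes of ER-associated degradation, 15 of 20 were lower, *Herpud1* among them, and the median was -0.08, or -0.10 without WT replicate 2. *Erlec1*, a lectin that hands glycoproteins to the degradation complex, was at -0.37 (SE 0.14, limma adjusted p 0.143), and *Ufd1*, a cofactor of the extracting ATPase, at -0.26 (SE 0.10, limma adjusted p 0.154), with adjusted p of 0.00314 and 0.0209 without WT replicate 2. *Vcp*, the ATPase itself, and *Ubxn4* were at 0.11 (SE 0.15) and 0.10 (SE 0.10), and *Herpud1* had the lowest value of the list, with *Erlec1* next. Of the genes for translocation into the ER and signal peptide removal, 12 of 20 were lower, with a median of -0.03, or -0.04 without WT replicate 2. *Spcs1* of the signal peptidase and *Srp9* of the signal recognition particle were at -0.48 (SE 0.16) and -0.33 (SE 0.15), while *Ssr1* and *Sec61a1*, of the translocon, were at 0.41 (SE 0.17) and 0.32 (SE 0.14). None of these 4 was called with 12 libraries, and without WT replicate 2 the limma adjusted p was 0.0203 for *Spcs1*, 0.108 for *Srp9*, 0.0178 for *Ssr1* and 0.0724 for *Sec61a1*.

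**Figure D5:**
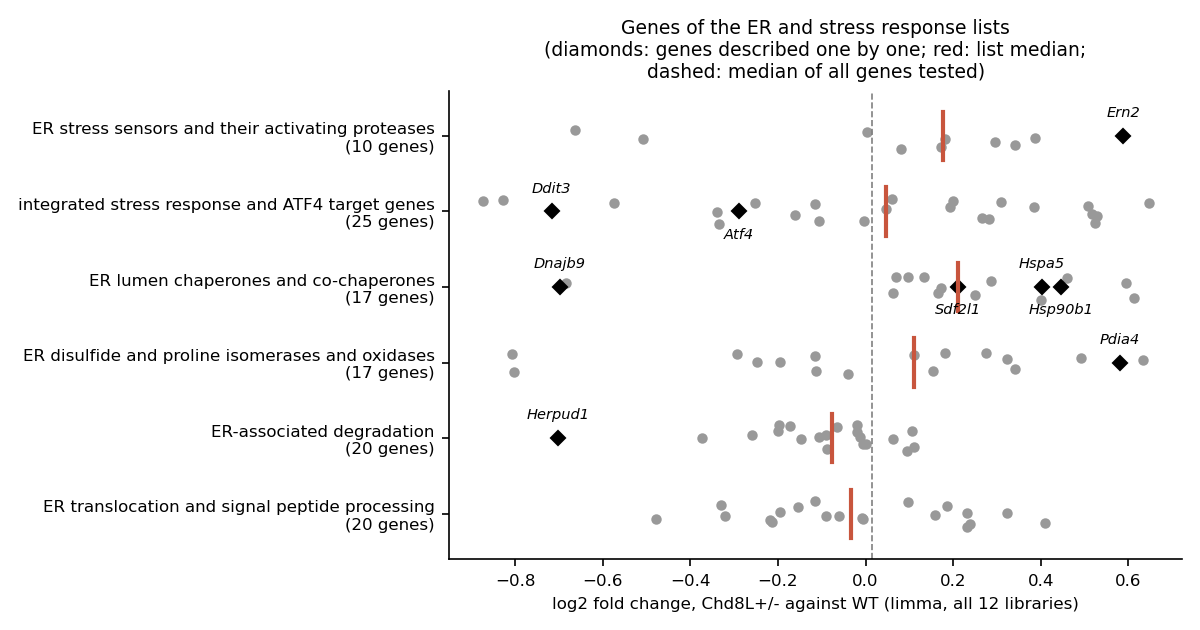
Log2 fold change in *Chd8L*+/- against WT libraries (limma, all 12 libraries, horizontal axis) of each gene in the 6 lists, with 9 of the 10 genes as named diamonds, list medians as red lines and the median of all genes as a dashed line. *Dnajb9* lies far below the other chaperones beside only *Sdf2*, *Herpud1* lies below the rest of its list, and the list medians stay between -0.08 and 0.21.

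Markers of other cell types and programs were counted in the same libraries. With all 12 libraries limma called none of the tuft cell, cell division, stromal and myeloid genes, and the summed levels of the groups overlapped in all of the 12 marker lists. All 14 tuft cell markers were lower, with a median log2 fold change of -1.77 and sums of 3750.3 to 35332 normalized counts in WT and 2152 to 14909 in *Chd8L*+/- libraries. WT replicate 2 was the lowest WT library for this sum, as it was for *Dnajb9* and *Ddit3*. All 20 genes of cell division were higher, with a median of 0.98 and sums of 4426 to 19565 in WT, the highest being WT replicate 2, and of 11130 to 21027 in *Chd8L*+/- libraries. All 9 stromal markers tested (median 1.68) and all 11 myeloid markers (median 0.64) were also higher, with sums of 184 to 678 and 1364 to 3487 in WT and of 251 to 2514 and 2002 to 4354 in *Chd8L*+/- libraries. With WT replicate 2 left out, the WT sums ranged from 16113 to 35332 for tuft cells, from 4426 to 10178 for cell division, from 1364 to 1655 for myeloid cells and from 960425 to 1057540 for enterocytes. For these 4 lists they then no longer overlapped with the *Chd8L*+/- sums, whereas for the other 8 they did, and limma called 13 of the 14 tuft cell markers lower and 19 of the 20 cell division genes higher. No marker that was found was at 0 in all libraries. Some defining markers were not found by symbol among the gene rows and could not be analysed here. Among these were *Muc2* of goblet cells, *Trac* of T cells and *S100a8* and *S100a9* of myeloid cells.

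Plasma cells also carry high levels of ER chaperones, and 11 of 12 markers of plasma and B cells were lower (median -0.23), with sums of 737 to 2708 in WT and 391 to 4956 in *Chd8L*+/- libraries. Of 9 Paneth cell markers 5 were lower (median -0.35), with sums of 96079 to 152795 in WT and 58352 to 164250.0 in *Chd8L*+/- libraries. Of 14 enterocyte markers 12 were lower (median -0.26), with sums of 490568 (WT replicate 2) to 1057540 in WT and of 409469 to 951968 in *Chd8L*+/- libraries. Enteroendocrine markers (8 of 14 lower, median -0.10) and T cell markers (5 of 11 lower, median 0.00) had medians nearer to 0. Genes that respond to tissue handling were lower in 19 of 21 cases (median -0.43), with sums of 46664 to 61197 in WT and 34044 to 47941 in *Chd8L*+/- libraries. These include *Hspa1a* and *Hspa1b*, near-identical genes of the cytosolic HSP70 between which reads cannot be assigned with certainty. Both fell, with log2 fold changes of -2.18 and -2.13 (limma adjusted p 0.0375 for both), and, with *Tsc22d3* (log2 fold change -0.88, limma adjusted p 0.0375), were the 3 genes called over the whole table. The part of each of these lists in the values of the 10 genes was not tested.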

How the data were processed

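Gut epithelial poly(A) RNA of 5 WT and 7 *Chd8L*+/- mice was read as single ends. The authors aligned the reads with Tophat2 to the mouse assembly mm10 and then used DESeq2. Per gene, the deposited signal is the count of reads over the library's size factor, as the authors scaled it. The counting program, annotation and use of strand are not given in the sources used here. Dividing each library by its smallest step returned whole reads for 100% of values (tolerance 0.01). No column belonged to other samples. Of the names in the table, 21 were date-like and 2 were repeated, and none of these was used as one of the 10 genes.

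The values were tested as log2(value + 1) with limma 3.58.1 in R 4.3.3 wherever a gene's mean value was 10 or more, with Benjamini-Hochberg adjustment over all genes tested and a threshold of 0.05. Fold changes are on the log2(value + 1) scale. A two-sided exact permutation test over the libraries was run gene by gene. The recovered reads were also tested with edgeR 4.0.16 and with DESeq2 1.42.0, and further alternatives were other pseudocounts, filters, normalizations, blocks and sets of libraries. Leaving out WT replicate 2 was planned because an earlier analysis of these data had shown it apart from the other WT libraries. The calls without it are therefore no independent check of the genotype difference. The combined settings without WT replicate 2 were added after seeing the data. The 10 genes and all lists were chosen with earlier results of these data known. From each pathway list at most the 2 genes with the smallest p in each direction were named, and of the sensors also *Eif2ak3* and *Atf6*; *Chd8*, epithelial markers and the 3 genes called over the whole table were named beside them. Replicates are separate mice.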

Additional observations from a re-analysis of the deposited data

Results flagged for a closer look

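*Pdia4* in *Chd8L*+/- replicate 7 lay far from the rest of its group. It had 927 normalized counts, against 1458 to 1996 in the other 6 *Chd8L*+/- libraries, a gap of 0.591 of the whole range of the group. Of 20 groups examined (10 genes in 2 genotypes), 1 was set apart in this way, and chance alone would give about 1. In the same library COX1, a mitochondrial gene, took 12.3% of all reads, the highest share of the 12 libraries. WT replicate 2 had 9.26% and *Chd8L*+/- replicates 3 to 6 had 6.44% to 7.96%, without low *Pdia4*. The part of this share in the *Pdia4* value was not tested.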

How the results depend on the processing

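Of 270 values of the 10 genes (27 alternatives each), none changed sign, 239 kept their side of the threshold and 31 passed it anew, all but 4 of them without WT replicate 2. The 4 were *Ddit3* in DESeq2 and *Ddit3*, *Ern2* and *Pdia4* with the letter of the library name as a block. The count of genes called over the whole table was 3 in the main comparison and rested on the libraries used. It was 5 in edgeR, 811 in DESeq2, 451 with the letter and 0 with the number of the library name as a block, and between 0 and 3534 with 1 library left out, the highest without WT replicate 2. Without that library it was 3365 in edgeR, 4112 in DESeq2, 2258 with the number as a block and 3747 with *Chd8L*+/- replicate 7 also left out. The cause was not tested. With the replicate block over 10 libraries it was 0, as it was in the same 10 libraries without it. Libraries of the same replicate number deviated together in 1 of 5 pairs only (r from -0.34 to 0.19). These 5 values are too few to exclude a pairing of the mice. The number in the library name was not checked in this way. The replicate block changed no call of the 10 genes.

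Of 162 list medians 159 moved by less than the SD of the list mean between single libraries. The translocation list went from -0.03 to 0.06 after quantile normalization, and with the number as a block and no WT replicate 2 the sensors went to 0.35 and the isomerases and oxidases to -0.05. Smaller moves also changed signs of medians near 0. After quantile normalization the integrated stress response list went from 0.05 to -0.06 and the degradation list from -0.08 to 0.02. With 169 reads or more for each of the 10 genes in every library, counting error was not tested apart from the spread between mice.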
